A study of Mus musculus with 2 samples.

Results

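The Cadm and Csmd genes encode membrane proteins of the nervous system. In this study the families stood for genes of very different length, among them Cadm2 and Csmd3, which the study's text counts as RDC-genes, meaning genes that hold a recurrent cluster of DNA double-strand breaks under replication stress. The members were taken by their symbols in the GENCODE M1 annotation of the mouse mm9 genome. All 7 were found, namely Cadm1, Cadm2, Cadm3, Cadm4, Csmd1, Csmd2 and Csmd3, among 37273 annotated genes, of which 22367 are protein-coding. The question was how many R-loop peaks each gene held, where along the gene they lay, and how the long members differed from their shorter relatives. Whether the other 5 members carry break clusters was not used here.

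R-loops are structures in which an RNA pairs with its DNA template and leaves the other DNA strand single. They form behind RNA polymerase, more readily where the RNA is rich in G, and are often found near the starts and ends of transcribed genes. Cadm proteins, also called SynCAMs or nectin-like molecules, are immunoglobulin adhesion molecules that hold synapses and other cell contacts together by binding one another across the gap. Csmd proteins are very large membrane proteins built from repeated CUB and sushi domains, the modules shared with regulators of complement, and they are strongly expressed in the developing brain.

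The assay was DRIP-seq, in which genomic DNA is cut with restriction enzymes and RNA:DNA hybrids are pulled down with the S9.6 antibody and sequenced. The cells were primary neural stem and progenitor cells (NSPCs) from the frontal brain of C57BL/6 mice at postnatal day 7. Per the study's methods, they were cultured and treated with 0.5 μM aphidicolin, a DNA polymerase inhibitor, for 48 h, a treatment the sample labels do not name. The data were 1 peak list made from 3 biological replicates, and an input sample served as control, for which no peak list was analysed here.

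The list held 22132 peaks, or 8.34 per Mb of the 21 chromosomes, and gave only the chromosome, start and end of each. It has no count, height or strand, so the depth behind each peak is unknown, no replicate error can be attached to any value below, and no test between genes was run. A gene without a listed peak is therefore a gene in which no peak was called, which does not show that R-loops were absent. For the culture's identity, 5 of 8 marker genes of neural stem and progenitor cells held a peak and 4 had a peak over their start, compared to 2 of 7 and 0 of 7 markers of immune, endothelial, liver, oligodendrocyte and neuronal cells. Of Nes, Sox2, Vim and Msi1, which mark neural stem cells, each had its start inside a peak, whereas Pax6, Fabp7 and Hes5 held 0 peaks. Over all protein-coding genes, 39.6% held a peak and 14.9% had their start inside one. The marker lists also differ in median gene length, 9.14 kb for neural stem and progenitor markers against 96.4 kb for the others. The peak list alone says little about expression, so these counts do not settle the cell type.

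The stretches richest in G are shown first, because the genes without a peak hold them too. For each gene with a peak, the 100 bases of its widest peak in which G outnumbered C most, outside exons, were taken, and for each gene without a peak the same was searched along the whole gene. Sequences are from the mm9 genome on the coding strand, 5′ to 3′, and capitals mark runs of at least 3 G.
Cadm4, intron, inside a peak, chr7:25284393-25284492, plus strand: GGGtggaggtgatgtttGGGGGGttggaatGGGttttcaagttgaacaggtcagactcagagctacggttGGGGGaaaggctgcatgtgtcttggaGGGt
Csmd2, intron, inside a peak, chr4:128067257-128067356, plus strand: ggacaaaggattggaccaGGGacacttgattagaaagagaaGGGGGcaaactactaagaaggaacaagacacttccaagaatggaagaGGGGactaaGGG
Csmd1, intron, inside a peak, chr8:16213781-16213880, minus strand: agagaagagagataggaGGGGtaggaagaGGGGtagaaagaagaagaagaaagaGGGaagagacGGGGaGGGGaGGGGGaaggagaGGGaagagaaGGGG
Cadm2, intron, no peak in the gene, chr16:67397400-67397499, minus strand: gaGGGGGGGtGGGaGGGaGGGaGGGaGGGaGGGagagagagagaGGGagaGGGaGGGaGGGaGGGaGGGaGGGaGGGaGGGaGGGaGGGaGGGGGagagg
Csmd3, intron, no peak in the gene, chr15:48620332-48620431, minus strand: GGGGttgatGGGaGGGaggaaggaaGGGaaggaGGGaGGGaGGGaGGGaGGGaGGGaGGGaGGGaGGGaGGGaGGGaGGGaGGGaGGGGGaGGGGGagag
Cadm3, intron, no peak in the gene, chr1:175292984-175293083, minus strand: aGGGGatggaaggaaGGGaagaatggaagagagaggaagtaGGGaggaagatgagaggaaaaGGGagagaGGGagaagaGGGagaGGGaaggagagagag
The windows of Cadm2 and Csmd3 held 73 and 71 G and 0 C, and consist largely of repeated runs of G set apart by single A bases. The Csmd1 window held 54 G and 1 C, the Cadm3 window 53 G and 0 C, the Cadm4 window 44 G and 10 C, and the Csmd2 window 33 G and 14 C. In Cadm1, the corresponding 100 bases of the widest peak were an alternation of T and G with 48 G. The window of Csmd3 lay 3.18 kb from the gene start and that of Cadm2 224 kb from it. In the genes with peaks only the widest peak was searched, and in the others the whole gene, which covers more sequence, so the windows do not rank the genes. Outside its widest peak, Csmd2 for one holds windows with a larger excess of G than the one printed.

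Together, the 7 genes span 4783 kb and held 23 peaks, 4.81 per Mb, which covered 0.998% of their bases. Cadm1, Cadm4, Csmd1 and Csmd2 held at least 1 peak, and Cadm2, Cadm3 and Csmd3 held 0. For comparison, 39.6% of the 22367 protein-coding genes held a peak. The Cadm family had 7 peaks over 1349 kb (5.19 per Mb) and the Csmd family 16 over 3434 kb (4.66 per Mb). Each family thus combined genes with many peaks and genes with 0, and the families were much closer to each other in density than were the members within either of them. No peak was shared between members.

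**Figure D1:**
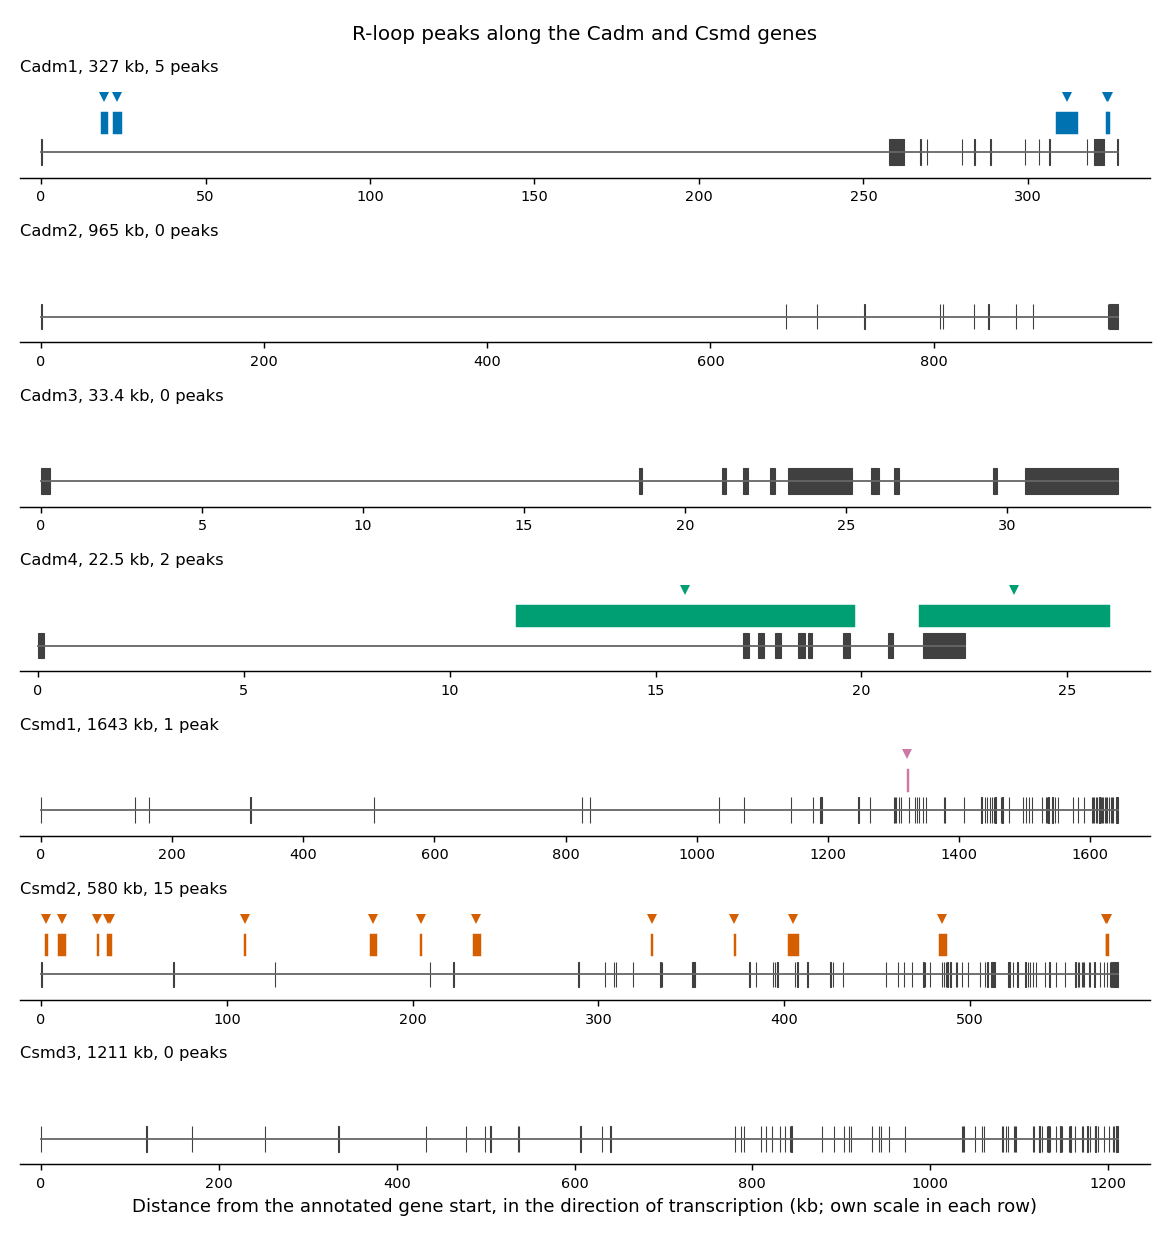
Each row is 1 gene drawn from its annotated start at 0, in the direction of transcription, on its own scale in kb. Dark boxes on the line are annotated exons, coloured boxes above it are the peaks drawn to scale, and triangles mark the middle of each peak and not its width. The 15 peaks of Csmd2 are spread along the gene, the 5 of Cadm1 lie near both ends, the 2 of Cadm4 fill its later part and run past its end, Csmd1 has 1 peak and the rows of Cadm2, Cadm3 and Csmd3 have 0.

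Cadm4 encodes the member best known from the contact between axons and the Schwann cells that myelinate them. It is the shortest of the 7 (ENSMUSG00000054793, chr7:25267042-25289558, plus strand, 22.5 kb) and had the highest share of its bases inside peaks, 41.5%. Its first peak (chr7:25278660-25286863) was 8.20 kb wide, the widest of the 23, began 11.6 kb from the gene start and ran over 6 exons with 864 bp of coding sequence. Its second peak (chr7:25288428-25293048) was 4.62 kb wide and lay over the end of the gene. Of this peak 24.5% was in Cadm4, and 3490 bp lay beyond the end. That part ran through the sequence between the genes and over the start of Zfp428, a zinc finger gene on the same strand (chr7:25292106-25300701). The peak therefore cannot be assigned to Cadm4 alone, and its midpoint lies outside the gene. Among the 4877 protein-coding genes of 20 to 50 kb, 49.1% held a peak and 158 had a higher share of bases covered than Cadm4. The surroundings were also rich in peaks, with 32 more within 500 kb of the gene.

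Cadm3, an adhesion molecule found mainly on neurons, is of similar length (ENSMUSG00000005338, chr1:175264385-175297826, minus strand, 33.4 kb) and held 0 peaks. The nearest peak to its start was 332 kb away and the nearest to its end 366 kb away. Of the genes of 20 to 50 kb, 2483 held 0 peaks, Cadm3 among them, but only 228 had a start farther from any peak. Cadm3 overlaps Aim2, a sensor of cytosolic DNA on the opposite strand (chr1:175281010-175396171), which held 0 peaks over 115 kb. With 2 peaks within 500 kb against 32 for Cadm4, the short members differed in their surroundings as well as in themselves.

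Cadm1 encodes the adhesion molecule by which this family was first tied to synapse assembly. It is 327 kb long (ENSMUSG00000032076, chr9:47338256-47665720, plus strand), of which 257 kb, or 78.6%, is a single stretch without an annotated exon. It held 5 peaks, 15.3 per Mb, covering 3.58%. They lay near the ends of the gene, 2 in the first and 3 in the last of 10 equal parts, with 284 kb (86.8% of the gene) between them without a peak. The early peaks, 1.84 and 2.46 kb wide, were in the first intron, 18.2 and 21.9 kb from the start. The widest, 6.38 kb (chr9:47646950-47653333), was in intron 7 of the longest coding transcript, 309 kb from the start. The last peaks, 0.471 and 0.570 kb wide and separated by 1 bp, began 493 bp beyond the end of the transcript Cadm1-001 at 47661468, inside the last intron of a longer annotated transcript. All 5 were wholly intronic by the annotation, and 3 were 1 kb or wider. Of the 528 protein-coding genes of 300 kb or more, 43 had more peaks per Mb than Cadm1, against a median of 2.60 per Mb.

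Cadm2 encodes a neuronal adhesion molecule and is the longest of its family (ENSMUSG00000064115, chr16:66655666-67621153, minus strand, 965 kb), 42.9 times the length of Cadm4. It held 0 peaks. The nearest peaks were 1097 kb upstream of its start and 744 kb downstream of its end, and 0 lay within 500 kb on either side. The interval without a peak around Cadm2 (chr16:65911681-68717722) measured 2.81 Mb, whereas the median interval between neighbouring peaks was 23.6 kb. Of the intervals of the genome, 51 (0.231%) were as long or longer, a share of intervals and not of bases. A gene of 965 kb with 0 peaks must lie in an interval at least that long, so this share is no separate evidence. As in Cadm1, most of the gene is a single stretch without an exon, here 667 kb or 69.1%.

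Csmd2, which encodes a synaptic membrane protein, had the most peaks of the 7 (ENSMUSG00000028804, chr4:127665101-128244903, plus strand, 580 kb). Its 15 peaks, 25.9 per Mb, covered 26.3 kb or 4.53% of the gene, and 11 of the 528 long genes had more. Its surroundings were rich in peaks too, with 33 more within 500 kb of the gene, the most of the 7 members. The count is therefore not set apart from that of its neighbourhood. Widths ran from 0.170 to 5.16 kb with a median of 0.894 kb, and 7 peaks were 1 kb or wider. The first peak began 2.38 kb from the gene start and 5 lay within the first 40 kb. Beyond them the peaks were spread out, with at most 2 in each later part when the gene was cut into 10 equal parts and 0 in the third and the eighth, and the longest stretch without a peak was 92.0 kb. Of the 15, 12 touched no annotated exon of any transcript, which is how wholly intronic was counted. The 5 early peaks lay outside the introns and exons of the longest annotated transcript of any type. Its first intron held the peak 110 kb from the gene start. That transcript thus begins beyond these 5 peaks, and the annotated gene start belongs to another one.

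The exon-bearing peaks of Csmd2 were in its second part. The widest (chr4:128067255-128072416, 5.16 kb) touched 2 exons, and it contained the start of another annotated transcript at 128072219, 197 bp before the peak's end. That transcript is the longest protein-coding transcript annotated for the gene in GENCODE M1, although it begins 407 kb into the gene and spans only 173 kb, over which 4 of the peaks lay. The second widest (chr4:128148254-128152276, 4.02 kb) touched 3 exons with 425 bp of coding sequence. The last peaks, separated by 1 bp, lay 5.41 kb before the gene end, and the later one touched 1 exon. Another peak (chr4:127841952-127845136, 3.19 kb) began 449 bp from the start of 4930465A12Rik, an RNA gene of 30.7 kb on the opposite strand, but did not overlap it. Because the list carries no strand, a hybrid made from either gene's RNA cannot be told apart there.

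Csmd1, a brain-expressed inhibitor of complement, is the longest member (ENSMUSG00000060924, chr8:15892537-17535586, minus strand, 1643 kb), 2.83 times the length of Csmd2. It held 1 peak (chr8:16213703-16214124), 0.422 kb wide and 1321 kb from the start, in intron 17, which amounts to 0.609 per Mb and 0.0257% of the bases. With only peaks of at least 1 kb, Csmd1 held 0. This peak is the one whose G-rich stretch is printed above, and the interval from it across the gene start to the next peak upstream was 1.58 Mb long. Of the long genes, 170 had a lower density and 168 of these had 0 peaks.

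Csmd3, linked to dendrite growth in neurons, is 1211 kb long (ENSMUSG00000022311, chr15:47412183-48623609, minus strand) and held 0 peaks. Its surroundings were lopsided. A peak lay 45.9 kb downstream of the gene end, while the nearest upstream of the start was 1684 kb away. The interval without a peak (chr15:47366281-50307765) measured 2.94 Mb, and 42 intervals in the genome (0.190%) were as long or longer. Here too the share is of intervals and not of bases, and it follows in part from the 0 peaks over 1211 kb. The longest interval in the list measured 8.73 Mb.

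Long and short members were then set side by side. The 5 members of 300 kb or more held 21 peaks over 4727 kb, 4.44 per Mb, compared to 4.88 per Mb for all 528 protein-coding genes of that length pooled. The pool includes annotated entries of 4434882 and 3009069 bp with 101 and 44 peaks, and the median per gene was 2.60 per Mb. Of the 21 peaks in the long members 15 were in Csmd2, and the other 4 genes held 6 over 4147 kb, 1.45 per Mb. The 4.44 became 2.12 with only peaks of at least 1 kb and 2.31 with the longest protein-coding transcript in place of the gene. No pooled value for all long genes is given at these settings. The 2 shorter members held 2 peaks over 56 kb, 35.7 per Mb, all of it from Cadm4 and 17.9 per Mb when a peak counted only with its midpoint inside the gene. By count of genes, 3 of 5 long members held a peak, where 68.2% of long genes did, and 1 of 2 short ones. With only peaks of at least 1 kb, Cadm1 and Csmd2 were the long members still holding a peak, where 36.4% of long genes did. Length alone thus did not order the members: Cadm1 and Csmd2 had higher densities than the pooled long genes, and Csmd1, Cadm2 and Csmd3 lower ones. Cadm2, Csmd1 and Csmd3, all of 900 kb or more, held 1 peak between them. Genes of that length held a peak in 83.6% of 67 cases with a median of 2 peaks, 11 held 0 as Cadm2 and Csmd3 did, and 29 held at most 1. Cadm2 and Csmd3 together span 2177 kb with 0 peaks, but they are only 2 of those 11 genes, so the pattern is not particular to them. No member lies on the X chromosome, which the pools of long genes include. The pools were not split by chromosome, so an autosomal share is not given.

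**Figure D2:**
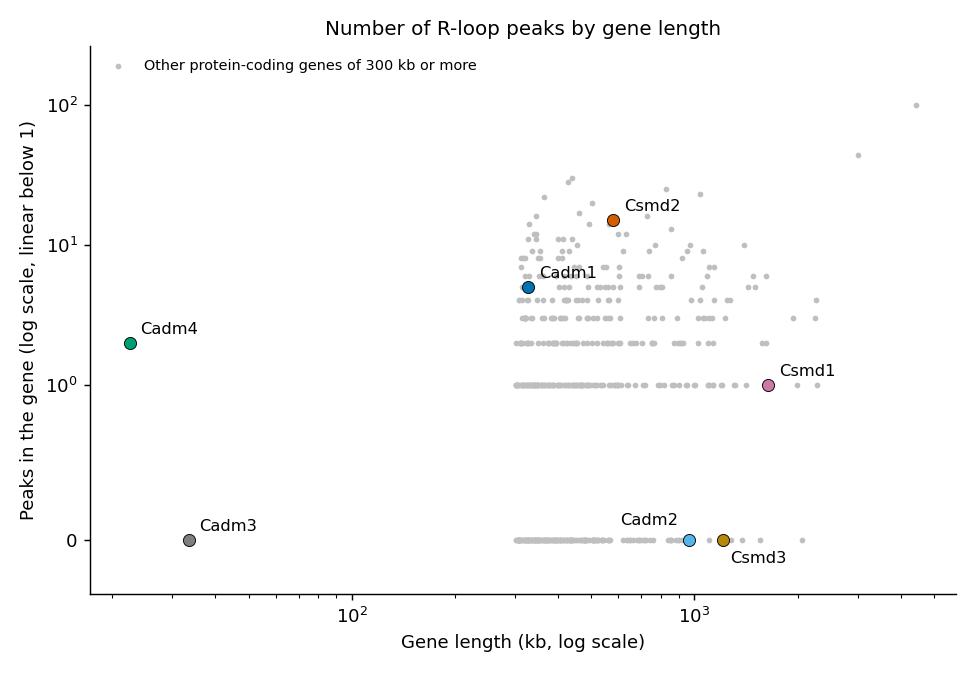
Number of peaks in each gene against its length in kb, both on log scales with the count axis linear below 1. Grey points are the protein-coding genes of 300 kb or more and coloured points are the 7 members, of which Cadm3 and Cadm4 are below 300 kb. Csmd2 with 15 peaks lies near the top of the grey points at its length, while Csmd1, Cadm2 and Csmd3 lie at 1, 0 and 0.

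None of the 7 gene starts was inside a peak, compared to 14.9% of protein-coding genes and 9.85% of those of 300 kb or more. With the starts of all protein-coding transcripts counted, 1 of 7 had such a start, Csmd2 with the later transcript described above. Measured from the start to the nearest peak, the order was Csmd2 at 2.38 kb, Cadm4 at 11.6 kb, Cadm1 at 18.2 kb, Csmd1 at 259 kb, Cadm3 at 332 kb, Cadm2 at 1097 kb and Csmd3 at 1257 kb. The median was 23.6 kb over protein-coding genes and 89.6 kb over long ones, so the first 3 were nearer than both medians and the other 4 farther. Among all protein-coding genes, 308 had a start farther from a peak than Cadm2 and 217 farther than Csmd3. The nearest peaks of Csmd2, Cadm4 and Cadm1 lay inside the gene, whereas that of Csmd1 lay upstream of it. The Csmd2 distance is from the annotated gene start, which is not the start of its longest annotated transcript. The same holds for the GC content and skew around the Csmd2 start given below. At the other end, 1 of 7 gene ends, that of Cadm4, was inside a peak, compared to 10.9% of protein-coding genes.

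The members also differed in base composition. Within 2 kb on either side of the start, GC content ran from 45.7% in Csmd3 to 59.4% in Csmd2. The genes nearest a peak, Csmd2, Cadm4 and Cadm1, had the highest values there, at 59.4, 57.9 and 56.3%. GC skew, here (G - C) / (G + C) read along the coding strand, was -0.194 in the first kb of Csmd2, -0.143 in Cadm4 and -0.0187 in Cadm1. It was -0.205 in Cadm2, -0.0987 in Csmd1, 0.141 in Cadm3 and 0.106 in Csmd3, so the only members with more G than C there were genes without a peak.

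Over the whole gene, GC content was 51.8% in Cadm4, 48% in Csmd2, 45.8% in Cadm3, 43.3% in Cadm1, 40.3% in Csmd1, 35.5% in Cadm2 and 35.2% in Csmd3. Apart from Cadm3, this was also the order of peak density, with Cadm2 and Csmd3 tied at 0. Cadm2 and Csmd3 were at the low end of the 528 long genes, where 9 and 2 genes had a lower GC content, while 19 had a higher one than Csmd2. Across those genes, GC content and peaks per Mb went together with Pearson's r = 0.464 and Spearman's rho = 0.520, a description across genes that share 1 library and are not independent replicates. Long genes under 37% GC, a limit set after the values were known, held a peak in 46.2% of 52 cases, and those over 47% GC in 91.3% of 23. The 0 of 2 for Cadm2 and Csmd3 thus stood beside a background lower than that of long genes in general.

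**Figure D3:**
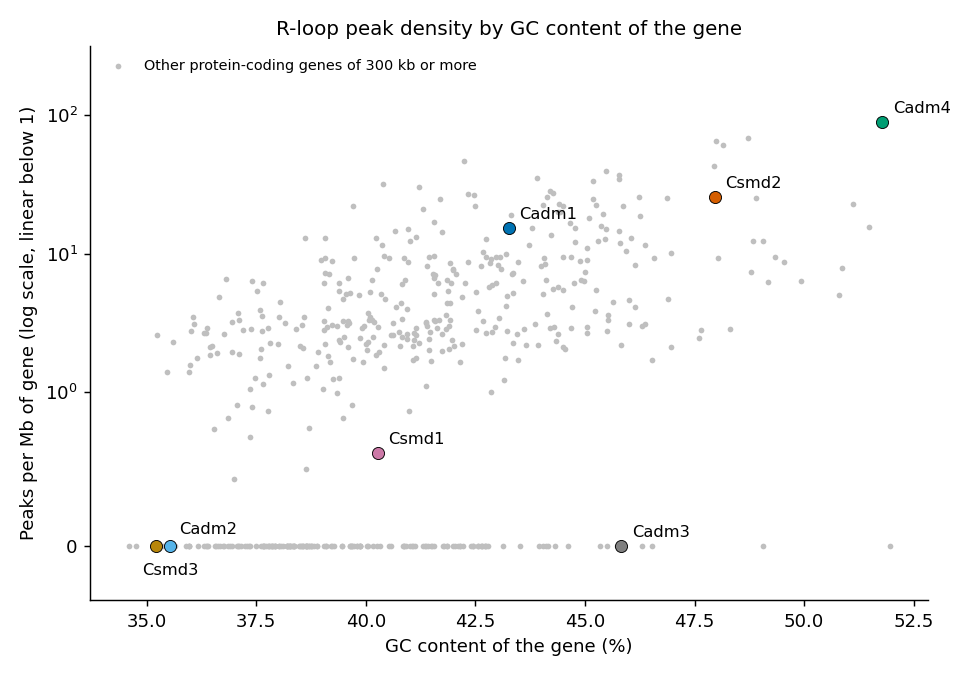
Peaks per Mb of gene, on a log scale that is linear below 1, against the GC content of the gene in percent. Grey points are the protein-coding genes of 300 kb or more and coloured points the 7 members, Cadm3 and Cadm4 being shorter than the rest. Csmd3 and Cadm2 sit at the far left with 0, Csmd1 at 40.3% with 0.609, Cadm1 and Csmd2 among the upper points, and Cadm3 at 45.8% with 0.

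The restriction digest differed along with GC content. Sites of the 5 enzymes used occurred 2.60 times per kb in Csmd3 and 2.55 in Cadm2, against a median of 1.94 in long genes, and only 4 and 7 long genes had more. They occurred 1.39 times per kb in Csmd2, where 507 long genes had more, 1.66 in Cadm1 and 1.02 in Cadm4. Csmd1 with 1 peak had 2.06, and Cadm3 with 0 peaks had 1.73, close to Cadm1. The median fragment between sites was 0.249 kb in Csmd3 and 0.25 kb in Cadm2, 0.428 kb in Cadm1, 0.436 kb in Cadm3 and 0.511 kb in Csmd2, and the part of the digest in the peak counts was not tested. Of the 46 edges of the 23 peaks, 14 (30.4%) were within 100 bp of a site, near the 28.3% of the edges of all peaks. Unknown bases numbered 0 in every member.

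Stretches of strong G excess were also counted. Windows of 100 bases with at least 30 more G than C on the coding strand occurred 239 times per Mb in Cadm3, 131 in Csmd2, 93.7 in Csmd1, 93.2 in Cadm2, 88.8 in Cadm4, 87.5 in Csmd3 and 51.9 in Cadm1. The values of the short members rest on 8 windows in Cadm3 and 2 in Cadm4. The median of long genes was 88.9, so Cadm2 and Csmd3 were at about that level in spite of their low GC content, and Cadm1 with 5 peaks was below it. Over the 528 long genes the median was higher in genes with more peaks, at 84.3 per Mb with 0 peaks, 87.4 with 1 to 4, 97.7 with 5 to 9 and 110 with 10 or more, an order that the 7 members did not show.

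The 23 peaks themselves were alike in GC content, from 42.6 to 54.6% with a median of 49.8%, near the 48.7% of all peaks in the list. In 16 of 23 the peak had a higher GC content than its own gene. Their widths had a median of 1.01 kb against 1.32 kb for all peaks, and 12 were 1 kb or wider, as were 58.7% of all peaks. No annotated exon was touched by 18 of them. Exons make up only 1.02 to 2.97% of the long members, so that count does not show a preference for introns. GC skew differed in sign between the genes. In Csmd2, 11 of 15 peaks had more C than G on the coding strand, whereas in the other genes 7 of 8 had more G than C. Skew was read from the part of a peak inside its gene, which for the second Cadm4 peak was 24.5%. The extremes were 0.734 in the peak of Csmd1 and -0.679 in the third peak of Csmd2. The latter is labelled intron only because it touches no annotated exon, as it lies outside the longest annotated transcript. That peak is shown to set beside the Csmd1 sequence above, with its 100 bases of largest excess of C, on the coding strand of the mm9 genome, 5′ to 3′, and runs of at least 3 C in capitals.
Csmd2, intron, inside a peak, chr4:127695265-127695364, plus strand: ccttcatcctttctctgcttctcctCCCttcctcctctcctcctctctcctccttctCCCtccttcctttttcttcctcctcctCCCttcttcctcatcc
This window held 53 C and 1 G, 30.2 kb from the gene start, so the strand rich in G is the template strand of Csmd2 there, opposite to the case in Csmd1. DRIP peaks carry no strand, and which strand was paired with RNA is unknown for both.

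**Figure D4:**
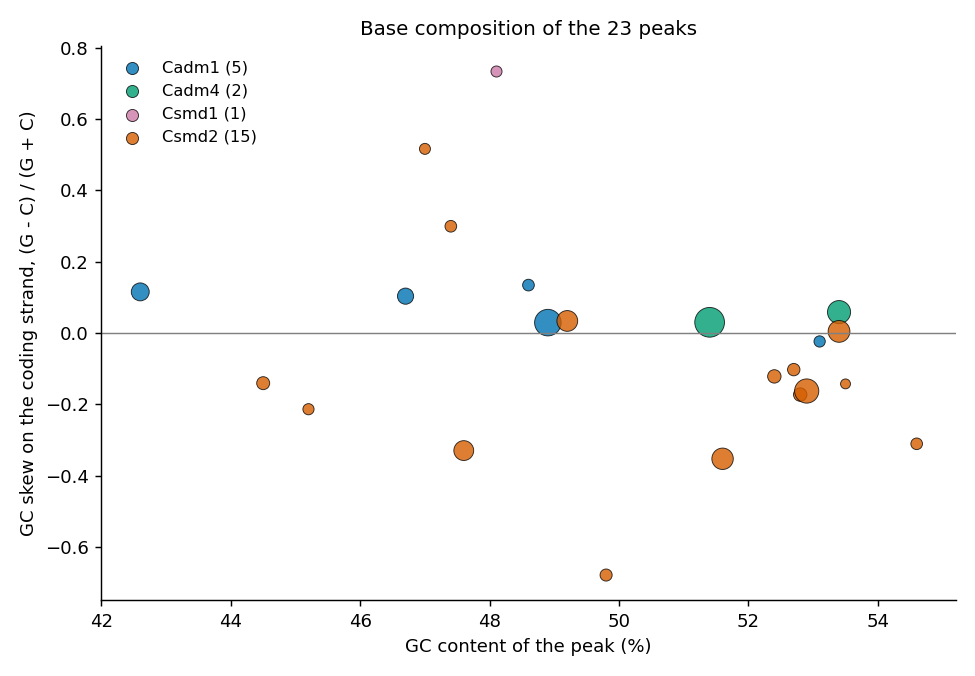
GC skew on the coding strand against the GC content in percent of each of the 23 peaks, coloured by gene, with larger circles for wider peaks and a line at a skew of 0. Most Csmd2 peaks lie below the line and the Csmd1 peak lies highest at 0.734. Skew is of the part of a peak inside its gene, and GC content is of the whole peak.

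The relatives and partners of the members were listed by family and not by their peaks. Of 6 nectins and nectin-like genes, the closest relatives of the Cadm genes, 4 held a peak, 15 peaks in all. Pvrl1, a nectin that also serves herpesviruses as a receptor, held 9 over 62.9 kb with its start inside a peak, and Pvr, the mouse poliovirus receptor homologue, 3 over 17.6 kb. Of 8 CUB or sushi domain genes, 3 held a peak, 4 peaks in all, with 2 in Sez6, which encodes a neuronal membrane protein, and 1 each in its relatives Sez6l and Sez6l2. Of 10 genes for proteins that bind Cadm tails or belong to their families, 5 held a peak, 11 peaks in all. Farp1, a synaptic organiser that binds Cadm1, held 6 over 249 kb. The longest with 0 peaks was Cask at 334 kb, a scaffold protein at synapses whose gene is on the X chromosome. Next were Epb4.1l2 at 164 kb and Epb4.1 at 152 kb, which link membranes to the spectrin skeleton. Against 39.6% of protein-coding genes, 12 of these 24 genes held a peak, a difference that was not tested and that the lists' differing lengths would affect.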

How the data were processed

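The authors digested genomic DNA of NSPCs with 5 restriction enzymes, pooled 3 DRIP reactions per biological replicate for each library, trimmed the reads (Trim Galore 0.6.6, per the submitters' processing notes), mapped them to mm9, discarded duplicate reads and used a Hidden Markov Model to call peaks. The aligner, and the rule that made 1 list from 3 replicates, are not given in the sources used here. The deposited values are positions in base pairs, and the depth is unknown. Starts were read as counted from 0 and are printed counted from 1. All 21 chromosomes of the list fit the mm9 sequence.

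Peaks were joined to GENCODE M1 genes from 1 bp of overlap with Python 3.11.15 and numpy 2.4.6, and figures were drawn with matplotlib 3.10.9. The overlap steps were tested on simulated data. The G-rich windows counted per Mb were non-overlapping stretches of 100 bases with at least 30 more G than C. The printed stretches were those of largest excess, whatever its size, and need not meet that limit. With 1 list, nothing was tested and no replicate could be left out. Genes named are the 7 members, genes that share or adjoin their peaks or lie between a member and its nearest peak, up to 3 listed relatives with most peaks and up to 3 longest with 0. Sez6, Sez6l, Sez6l2 and the cell markers were named after their values were seen. The members and lists were chosen with earlier results of these data known, and the classes of 900 kb, 20 to 50 kb and GC content after seeing values. Alternatives were peaks of at least 1 kb, merged peaks, peak midpoints, 2 kb flanks, the longest coding transcript, other gene classes and, added after seeing the data, starts counted from 1. RefSeq sequence tables of another build were not used.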

Additional observations from a re-analysis of the deposited data

How the results depend on the processing

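Cadm2, Cadm3 and Csmd3 held 0 peaks under every alternative run for them. With only peaks of at least 1 kb, the 7 genes held 12 peaks over 0.875% of their bases, Cadm1 3, Csmd1 0 and Csmd2 7, the long members had 2.12 per Mb, and the share with a peak was 31.8% of protein-coding genes and 36.4% of those of 300 kb or more. With the longest protein-coding transcript in place of the gene, the 7 held 12 peaks over 0.614%, Csmd2 4, the long members had 2.31 per Mb and 1 start was inside a peak, that of Csmd2, which was also the 1 found when any protein-coding start counted. With midpoints, Cadm4 held 1 peak, the short members had 17.9 per Mb and 34.9% of protein-coding genes held a peak. Merging peaks closer than 1 kb gave 1.01% of bases and 20 peaks in the 7 genes, with 13 in Csmd2 and 4 in Cadm1. The long members then had 3.81 per Mb. The share of genes with a peak was 43.1% with 2 kb added to each side, 27.1% over all annotated genes and 74.0% for genes of 500 kb or more. Of 91 alternative values, 21 moved, and reading starts as counted from 1, added after seeing the data, moved none. Counts within a ratio of 1.5 of the main value were labelled the same, so a value that did not move was not always identical. No paired analysis was possible because there is 1 list. Without counts or replicates, a peak too weak to be called cannot be told from no R-loop.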
